A study of Mus musculus with 6 samples.

Results

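The genes described here are 48 enzymes and enzyme subunits that break down amino acids in the liver, chosen by gene symbol from a list arranged by amino acid. All 48 were found among the 20673 genes listed in the deposited tables, and all 48 passed the low-count filter that left 13105 genes for testing. Total RNA was sequenced from livers of C57BL/6J mice given a regular diet (RD, n = 3) or a high-cholesterol diet (HCD, n = 3) for 3 days. RD was a Teklad rodent chow, and HCD was TD.88051, a diet that carries cocoa butter, cholesterol and the bile salt sodium cholate, so that the added cholesterol, fat and cholate of HCD and the other ingredients in which these 2 diets differ cannot be told apart. The livers come from the RNA-sequencing arm of a study that asked what a short period on HCD does before experimental sepsis, and no liver here is described as septic. The mice were young adults by the study's list of animals, which gives 1 age for all experiments and none per liver. The comparison shows whether the RNA of these enzymes differed between the livers of the 2 diets. The library names of the RD and HCD livers follow different series. Whether the diets also differed in collection or preparation is not given, and such a difference cannot be told apart from diet.

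Amino acids that are not needed for protein synthesis lose their nitrogen, mostly by transamination, and the remaining carbon skeletons enter the citric acid cycle, gluconeogenesis or ketone body formation. Hepatocytes hold nearly the whole set of these pathways, many of them in mitochondria, and several of the first steps, such as those for tyrosine, tryptophan and serine, are known to follow feeding, glucagon and glucocorticoids. The carbon of cysteine has a further use in the liver, where it is turned into taurine, which is joined to bile acids.

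Total counts ran from 13771630 to 23129576 per liver. Levels are given as CPM, a count relative to its library's total after scaling by the trimmed mean of M-values (TMM), with scaling factors between 0.886 and 1.07. On this scale 3 counts equal 0.130 CPM in RD 3 and 0.243 CPM in HCD 3, the lowest and the highest of the 6 livers. HCD 1 stood apart from the others: it held 5032 counts of Xist, the transcript of the inactive X chromosome, and 0 counts of the Y-linked genes Ddx3y, Eif2s3y, Kdm5d and Uty, whereas Xist was at 0 in the other 5 livers and the Y-linked genes were present. Both sexes were used in the study, and the labels do not give the sex of a liver, so the calls of Csad and of the carriers are also given without HCD 1, and those of cell type markers are not. The hepatocyte markers were abundant in every liver, with Alb between 63316 and 105649 CPM, and 5 of 6 exocrine pancreas markers were not listed at all. Of 6 hepatocyte markers tested, 1 was called higher, beside 1.95% of all genes tested. This was Cyp3a11, a cytochrome P450 that was 2.09-fold higher with HCD (edgeR adjusted p = 0.0329).

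Of the 48 enzymes, 0 were called higher and 1 was called lower with HCD, and 47 were not called (edgeR quasi-likelihood F test, Benjamini-Hochberg adjusted p under 0.05). Over all 13105 genes tested, 428 were called, which is 3.27%: HCD was higher for 255 (1.95%), lower for 173 (1.32%). Before adjustment, 9 enzymes had p of 0.05 or below, 5 with HCD above RD (11.1% of all genes tested) and 4 with HCD below (9.81% of all genes tested), together 18.75% of the members beside 20.9% of all genes tested. The livers did not overlap between diets for 9 members, 6 with HCD above RD (14% of all genes tested) and 3 with HCD below (13.7%), again 18.75% of the members beside 27.6% of all genes tested. DESeq2, another count model, called 2 members higher and 2 lower, beside 7.2% of the 13822 genes to which it gave an adjusted p. The median log2 fold change (HCD over RD) was 0.027 over the members and 0.0074 over all genes tested, with 27 members above 0 and 21 below.

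**Figure D1:**
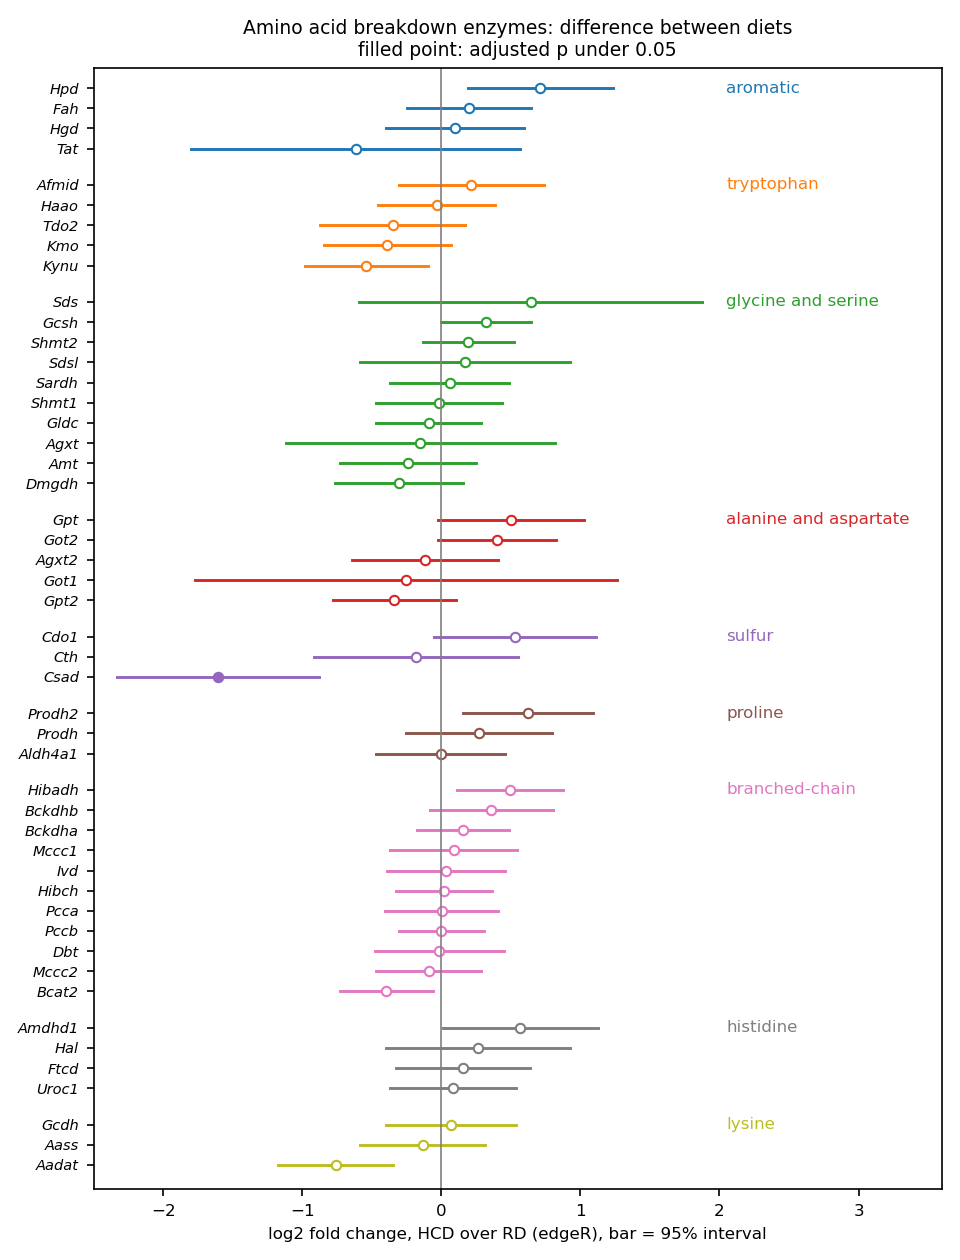
Log2 fold change of each of the 48 enzymes, HCD over RD, with its 95% interval from the edgeR fit (3 livers per diet), grouped by amino acid; filled points have an adjusted p under 0.05. Csad, at -1.61, is the only filled point, and 38 of the 48 points lie within 0.5 of 0.

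The spread of these estimates sets how much a missing call says. The standard error of a member's log2 fold change had a median of 0.20 (range 0.13 to 0.66) beside 0.24 over all genes tested, and 38 members lay at or below that median. Of the 47 members that were not called, 37 had a 95% interval that stayed within a 2-fold change either way. The other 10 include Tat, Got1, Sds and Agxt, whose livers on the same diet differed widely (below). A 3 against 3 comparison of one gene by exact permutation cannot give a two-sided p under 0.10, so the adjusted p-values below come from the fit across all genes. Whether the livers of a diet came from separate cages or procedures is not given, and the p-values measure the spread between these samples.

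**Figure D2:**
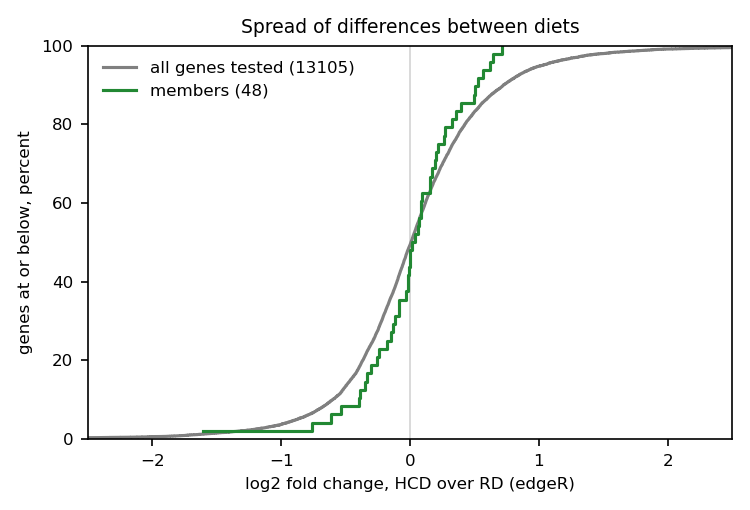
Cumulative share of genes (percent, vertical axis) at or below each log2 fold change, HCD over RD (horizontal axis), for the 48 enzymes and for all 13105 genes tested. The members span -1.61 to 0.71, and apart from Csad no member lies below -0.76.

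The sulfur amino acid group held the 1 called enzyme. Csad, cysteine sulfinic acid decarboxylase (ENSMUSG00000023044; chromosome 15, 102176999 to 102204724 in the GRCm38 coordinates of GENCODE M21), makes hypotaurine, the precursor of taurine. Csad was at 465.2, 699.3 and 527.8 CPM in RD 1, 2 and 3, and at 132.5, 285.7 and 137.1 CPM in HCD 1, 2 and 3. Every HCD liver lay below every RD liver, and HCD 2 was the highest of the 3 HCD livers as RD 2 was of the 3 RD livers. The mean was 564.1 ± 121 CPM with RD and 185.1 ± 87.2 CPM with HCD (SD, n = 3), a log2 fold change of -1.61 (SE 0.32, 95% interval -2.33 to -0.88, adjusted p = 0.0370), or 3.05-fold lower. In FPKM, which also divides by exon length, the authors' values averaged 215 ± 43.3 with RD and 71.2 ± 31.7 with HCD (SD, n = 3). Without HCD 1 the log2 fold change was -1.42 with an adjusted p of 0.0650, and leaving out a single liver kept the call only when HCD 2 was the one left out. Exons of Csad share 278 bases with Zfp740 on the opposite strand, and the strand setting of the counting is not given. Zfp740 itself was at 20.7 to 26.8 CPM in all 6 livers. Whole liver holds several cell types, and fewer cells of a type and less RNA per cell cannot be told apart in these samples.

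A pair of starts of Csad is annotated in RefSeq, and the 250 bases before each are shown because Csad is the only enzyme called. Both are given 5′ to 3′ on the minus strand in GRCm38.p6. Neither window holds AGGTCA (the half-site of many nuclear receptors), CAAGGTCA, the same half-site as an inverted repeat with a single base between (the arrangement called an IR-1 element) or TATAAA on either strand, and so no base is capitalised.
Csad, chr15:102205053-102205302, minus strand: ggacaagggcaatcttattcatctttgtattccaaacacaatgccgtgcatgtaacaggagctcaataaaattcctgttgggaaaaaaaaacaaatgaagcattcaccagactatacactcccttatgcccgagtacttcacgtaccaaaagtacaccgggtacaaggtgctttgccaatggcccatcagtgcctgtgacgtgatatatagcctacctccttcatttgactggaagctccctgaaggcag
Csad, chr15:102189044-102189293, minus strand: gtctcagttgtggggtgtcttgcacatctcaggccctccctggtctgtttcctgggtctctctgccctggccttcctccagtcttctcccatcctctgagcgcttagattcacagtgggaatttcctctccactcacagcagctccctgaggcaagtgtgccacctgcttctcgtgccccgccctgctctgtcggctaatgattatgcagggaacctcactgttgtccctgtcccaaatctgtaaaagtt
Among 32536 mouse promoter windows of this length, AGGTCA occurred in 14.0%, CAAGGTCA in 1.33%, the inverted repeat in 0.00615% and TATAAA in 12.3%. Each CAAGGTCA and each inverted repeat also counts as an AGGTCA. Of the 48 enzymes, 41 had at least 1 window in RefSeq, 46 windows in all. AGGTCA was found for 13 of the 41 and TATAAA for 6, among them Tdo2, Got2, Hgd and Agxt2 with both. A match gives the letters in the window and nothing about binding.

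The enzyme one step ahead of Csad was Cdo1, cysteine dioxygenase, which makes the substrate of Csad and had the highest mean deposited FPKM of all members, 1435 over the 6 livers. Its FPKM implies 1530 exon bases where M21 has 1644, and with the M21 lengths Cdo1 and Hpd were nearly level, at 904 and 900.4 CPM per 1000 bases. Cdo1 was at 1407, 1233 and 1005 CPM with RD and at 2122, 1154 and 1991 CPM with HCD. HCD 1 and HCD 3 lay above all RD livers and HCD 2 lay among them. The log2 fold change was 0.53 (95% interval -0.05 to 1.11, adjusted p = 0.276), opposite in sign to that of Csad and not past the threshold. Cth, cystathionine gamma-lyase, which releases cysteine from cystathionine, differed by -0.18 on the log2 scale (95% interval -0.91 to 0.55, adjusted p = 0.787). Cth reached 622.4 CPM in RD 3 and lay between 253.1 and 419.0 CPM in the other 5 livers, so the diets overlapped.

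**Figure D3:**
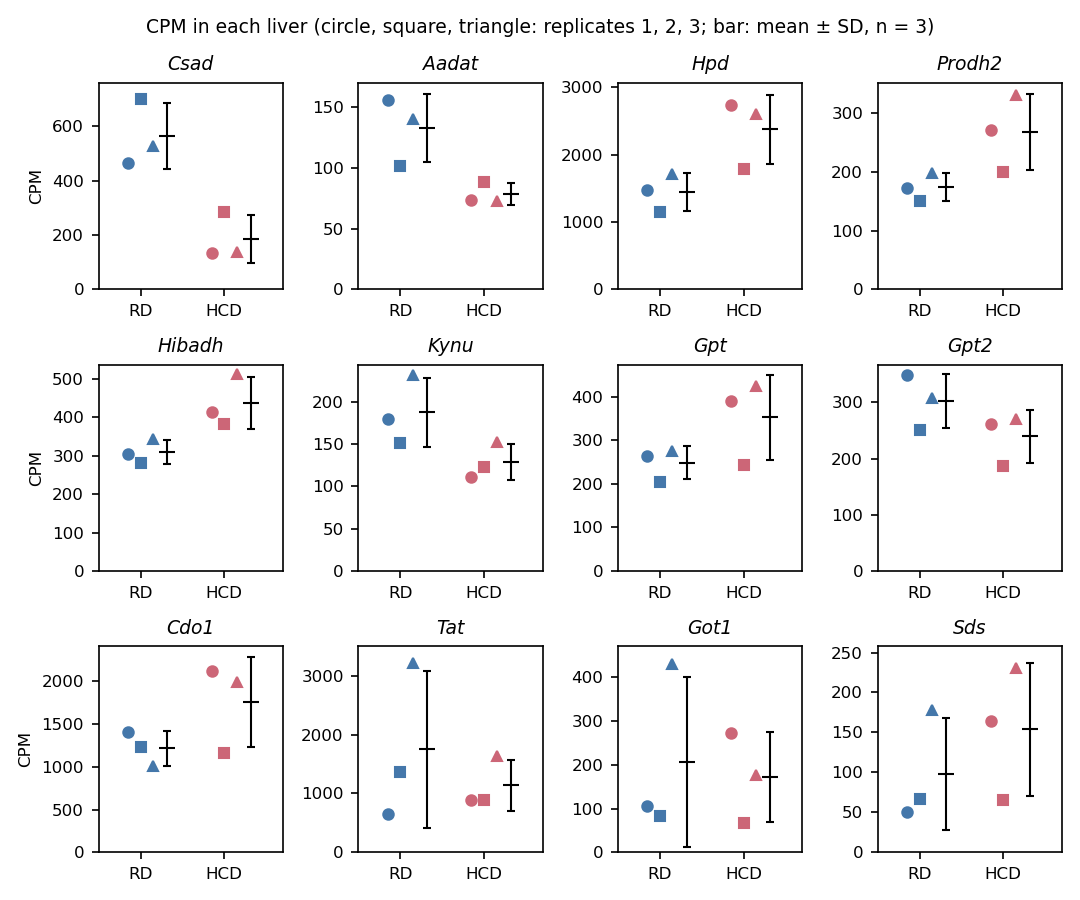
CPM of 12 enzymes in each liver, RD in blue and HCD in red, with circles, squares and triangles for replicates 1, 2 and 3 and bars for the mean ± SD (n = 3); each vertical axis starts at 0. Csad is lower in every HCD liver (132.5 to 285.7 CPM) than in every RD liver (465.2 to 699.3 CPM), and RD 3 stands far above RD 1 and RD 2 for Tat, Got1 and Sds.

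Of the 4 members on the route from tyrosine to fumarate and acetoacetate, which do not cover every step, 0 were called in either direction. Hpd, 4-hydroxyphenylpyruvate dioxygenase, the second step, was at 1479.9, 1155 and 1721 CPM with RD and at 2741, 1793 and 2605 CPM with HCD. All 3 HCD livers lay above all 3 RD livers. Its log2 fold change of 0.71 (SE 0.23, 95% interval 0.19 to 1.23) was the highest of the 48 members and had an adjusted p of 0.131. DESeq2 gave 0.70 with an adjusted p of 0.0121, so the call of Hpd depends on the tool. The 2 later members, Hgd (homogentisate dioxygenase) and Fah (fumarylacetoacetate hydrolase), had log2 fold changes of 0.10 and 0.20, with adjusted p of 0.836 and 0.601. Tat, tyrosine aminotransferase, the first step, was at 649.9, 1372 and 3222 CPM with RD and at 897.4, 887.4 and 1637 CPM with HCD. The 4.96-fold range within RD took in every HCD liver, and the log2 fold change of -0.62 carried a 95% interval from -1.80 to 0.56 (adjusted p = 0.534).

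In the 5 tryptophan enzymes of the kynurenine pathway, 0 were called and 4 log2 fold changes lay below 0, with a group median of -0.35. HCD 1, the liver that stood apart, was the lowest of the 6 livers for all 4 of these, and without it Kynu differed by -0.45 and Haao by 0.043 on the log2 scale. Kynu, kynureninase, was at 179.5, 151.4 and 232.0 CPM with RD and at 111.8, 122.6 and 153.2 CPM with HCD. HCD 3 lay just above RD 2, and the other HCD livers lay below all RD livers. The log2 fold change was -0.54 (95% interval -0.98 to -0.10, adjusted p = 0.168). Tdo2, tryptophan dioxygenase, the entry step, had -0.35 (adjusted p = 0.420), and Kmo, kynurenine 3-monooxygenase, had -0.39 (adjusted p = 0.309). Haao, 3-hydroxyanthranilate dioxygenase, had the highest deposited FPKM of the group (mean 598 over the 6 livers, beside 463 for Tdo2), but that order rests on the exon length used. The FPKM of Haao implies 1222 exon bases where GENCODE M21 has 4681, and with the M21 lengths Tdo2 was above Haao, at 314 and 106 CPM per 1000 bases. Haao was at 479.4, 442.0 and 582.1 CPM with RD and at 436.6, 441.9 and 591.1 CPM with HCD, the diets covering the same span, and its log2 fold change of -0.033 had a 95% interval of -0.45 to 0.39. Afmid, the formamidase between Tdo2 and Kmo, had 0.22 (adjusted p = 0.627), but 1566 of its 3539 exon bases also belong to another gene model on the same strand, Gm20708, and its counts are uncertain.

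Aadat, aminoadipate aminotransferase, is counted here with lysine and also acts on kynurenine, the substrate of Kynu and Kmo. Aadat was at 155.9, 101.4 and 140.2 CPM with RD and at 73.3, 88.6 and 73.0 CPM with HCD. All HCD livers lay below all RD livers. The log2 fold change was -0.76 (SE 0.18, 95% interval -1.17 to -0.35), and the adjusted p of 0.0605 was the smallest among the 47 members that were not called. Aadat was called by DESeq2 (adjusted p = 0.00317) and when no low-count filter was used (adjusted p = 0.0343), and in 0 of the 6 fits that left out a liver. For Aass (aminoadipate semialdehyde synthase), the first lysine enzyme, the value was -0.13 on the log2 scale (adjusted p = 0.743). Gcdh, glutaryl-CoA dehydrogenase, the most abundant of the 3 lysine members per exon length, was at 525.9, 405.3 and 425.3 CPM with RD and at 543.0, 351.7 and 530.3 CPM with HCD. The diets overlapped for Gcdh, with a log2 fold change of 0.071 (95% interval -0.40 to 0.54).

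The 4 histidine enzymes, which run from histidine to glutamate, all had log2 fold changes above 0 (0.086 to 0.57), and 0 of them were called. Amdhd1, imidazolonepropionase, the third step, was at 198.1, 216.5 and 328.5 CPM with RD and at 387.7, 273.4 and 441.4 CPM with HCD. HCD 2 lay below RD 3, so the diets overlapped, and the log2 fold change was 0.57 (95% interval 0.01 to 1.13, adjusted p = 0.232). Uroc1 (urocanate hydratase, the second step) had 0.086, Hal (histidine ammonia-lyase, the first) had 0.26, and Ftcd (formiminotransferase cyclodeaminase, the last) had 0.16, with adjusted p of 0.842, 0.648 and 0.712. RD 1 was the lowest liver for Amdhd1 and Hal, while HCD 2 was the lowest for Uroc1.

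Of the 3 enzymes of proline and hydroxyproline breakdown, 0 were called. Prodh2, hydroxyproline dehydrogenase, was at 171.8, 150.5 and 197.7 CPM with RD and at 271.3, 199.98 and 329.9 CPM with HCD. The diets did not overlap, though HCD 2 lay barely above RD 3. The log2 fold change was 0.62 (SE 0.20, 95% interval 0.16 to 1.09) with an adjusted p of 0.136 in edgeR and of 0.0379 in DESeq2. Prodh, proline dehydrogenase, had 0.27 (adjusted p = 0.539). Aldh4a1, a dehydrogenase that follows in both pathways, had -0.0038 (95% interval -0.47 to 0.46), and 1595 of its 4907 exon bases also belong to Gm21969 on the same strand.

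The 11 branched-chain members cover the transaminase, the branched-chain ketoacid dehydrogenase and the mitochondrial steps that follow for leucine, isoleucine and valine. Of these, 0 were called, 8 log2 fold changes lay above 0 and 3 below, and the median was 0.019 (range -0.40 to 0.50). Hibadh, 3-hydroxyisobutyrate dehydrogenase of valine breakdown, was at 303.2, 282.1 and 344.2 CPM with RD and at 414.9, 382.2 and 513.8 CPM with HCD. The diets did not overlap, and the log2 fold change was 0.50 (SE 0.17, 95% interval 0.12 to 0.88, adjusted p = 0.143). Pccb, a subunit of propionyl-CoA carboxylase and the most abundant of the group per exon length, was at 196.9, 164.4 and 171.5 CPM with RD and at 174.6, 170.5 and 187.6 CPM with HCD. The diets overlapped for Pccb, and its log2 fold change of 0.00018 had a 95% interval of -0.30 to 0.30.

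Bcat2, the mitochondrial branched-chain aminotransferase, was chosen after its values were seen, as the only branched-chain member that lay below RD with an unadjusted p under 0.05. Bcat2 was at 22.7, 25.8 and 25.6 CPM with RD and at 19.2, 16.6 and 20.5 CPM with HCD, without overlap, for a log2 fold change of -0.40 (95% interval -0.73 to -0.06, adjusted p = 0.176). The liver is known for low activity of this first step, which takes place largely in muscle. The dehydrogenase subunits Bckdha, Bckdhb and Dbt had log2 fold changes of 0.16, 0.36 and -0.014, and the adjusted p was 0.568, 0.334 and 0.975. On the opposite strand, B3gnt8 shares 1171 of the 1899 exon bases of Bckdha and 0610005C13Rik shares 622 of the 3900 of Bcat2, so without the strand setting the counts of both are uncertain, as is the ratio of Bckdha to Bckdhb.

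The 10 glycine and serine members had a median log2 fold change of 0.023 (range -0.30 to 0.64), with 5 above 0, 5 below and 0 called. Gcsh, the H protein of the glycine cleavage system, was at 84.3, 76.3 and 80.8 CPM with RD and at 93.3, 90.5 and 118.7 CPM with HCD. The diets did not overlap, and the log2 fold change was 0.32 (95% interval 0.00 to 0.65, adjusted p = 0.239). Gcsh has transcribed or annotated copies elsewhere in the genome that match at 90.5% to 92.9% over at least 200 bases, so its counts are less certain. Gldc and Amt, the P and T proteins of the same system, had log2 fold changes of -0.089 and -0.24, with adjusted p of 0.799 and 0.562. Sardh, sarcosine dehydrogenase, the most abundant of the group per exon length, was at 1073, 856.7 and 1066 CPM with RD and at 1122, 838.2 and 1165 CPM with HCD. RD 2 and HCD 2 were the low livers of their diets, and the log2 fold change was 0.061 (95% interval -0.37 to 0.49).

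The alanine and aspartate group holds Gpt, Gpt2, Got1 and Got2, transaminases that pass nitrogen to and from glutamate, and Agxt2, a glyoxylate aminotransferase. Of its 5 members, 0 were called. Gpt, alanine aminotransferase of the cytosol, was at 264.8, 205.2 and 276.4 CPM with RD and at 390.7, 242.1 and 424.5 CPM with HCD, a log2 fold change of 0.50 (95% interval -0.02 to 1.02, adjusted p = 0.255). Gpt2, its mitochondrial counterpart, was at 348.4, 251.5 and 307.5 CPM with RD and at 261.2, 186.2 and 270.8 CPM with HCD, a log2 fold change of -0.34 (95% interval -0.78 to 0.10, adjusted p = 0.360). Each gene alone overlapped between the diets. Their log2 ratio per exon length (FPKM of Gpt over Gpt2) was 0.54, 0.65 and 0.79 with RD and 1.52, 1.32 and 1.59 with HCD, without overlap, which makes the mean ratio 1.58 with RD and 2.78 with HCD. Gpt2 has a pseudogene, Gm5049, that matches it at 90.3% over 1405 bases. This ratio was compared without a test, as 1 of 9 pairs of isoenzymes or subunits. This was the 1 pair of 9 whose ratios did not overlap between diets. As single genes, 27.6% of all genes tested did not overlap between diets.

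In the other 8 pairs the diets overlapped, and the ratio is the FPKM of the first gene over that of the second. Sds over Sdsl, the serine dehydratase and its relative, was 4.34 with RD and 5.72 with HCD. Got1 over Got2, the cytosolic and mitochondrial aspartate aminotransferases, was 0.643 and 0.473. Shmt1 over Shmt2, the cytosolic and mitochondrial serine hydroxymethyltransferases, was 0.636 and 0.542, and Prodh over Prodh2 was 0.246 and 0.198. Among the subunit pairs, Pcca over Pccb was 0.224 and 0.221, Mccc1 over Mccc2 (methylcrotonyl-CoA carboxylase, of leucine breakdown) was 0.197 and 0.220, and Bckdha over Bckdhb was 1.01 and 0.883. Agxt over Agxt2, both glyoxylate aminotransferases, was 4.17 and 4.07, and Agxt2 itself differed by -0.11 on the log2 scale (adjusted p = 0.815). Of these genes, Got2, the member of the alanine and aspartate group with the highest mean FPKM, was at 469.5, 427.1 and 481.2 CPM with RD and at 570.5, 491.5 and 754.3 CPM with HCD. The diets did not overlap for Got2, with 0.40 on the log2 scale (adjusted p = 0.266). Got2 has near-identical copies, Got2-ps1 at 99.15% over 1282 bases and Gm10874 at 98.78% over 1617 bases, so reads may be split between them. Shmt2 also lay higher in every HCD liver, with a log2 fold change of 0.19 (adjusted p = 0.477).

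Livers on the same diet differed from one another across the whole set. Relative to each gene's mean over the 6 livers, the median member lay at -0.034, -0.25 and 0.22 on the log2 scale in RD 1, 2 and 3, and at 0.053, -0.21 and 0.23 in HCD 1, 2 and 3. Over all genes tested these medians were between 0.0013 and 0.014. RD 3 and HCD 3 were thus high and RD 2 and HCD 2 low, by amounts larger than the 0.027 between diets. One of these replicate 3 livers held the highest value of 34 of the 48 members, and one of the replicate 2 livers the lowest value of 35. The livers with the same number are not known to share a cage, a day or a litter. Without RD 3 the median of the members was 0.17, and without RD 2 it was -0.067.

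**Figure D4:**
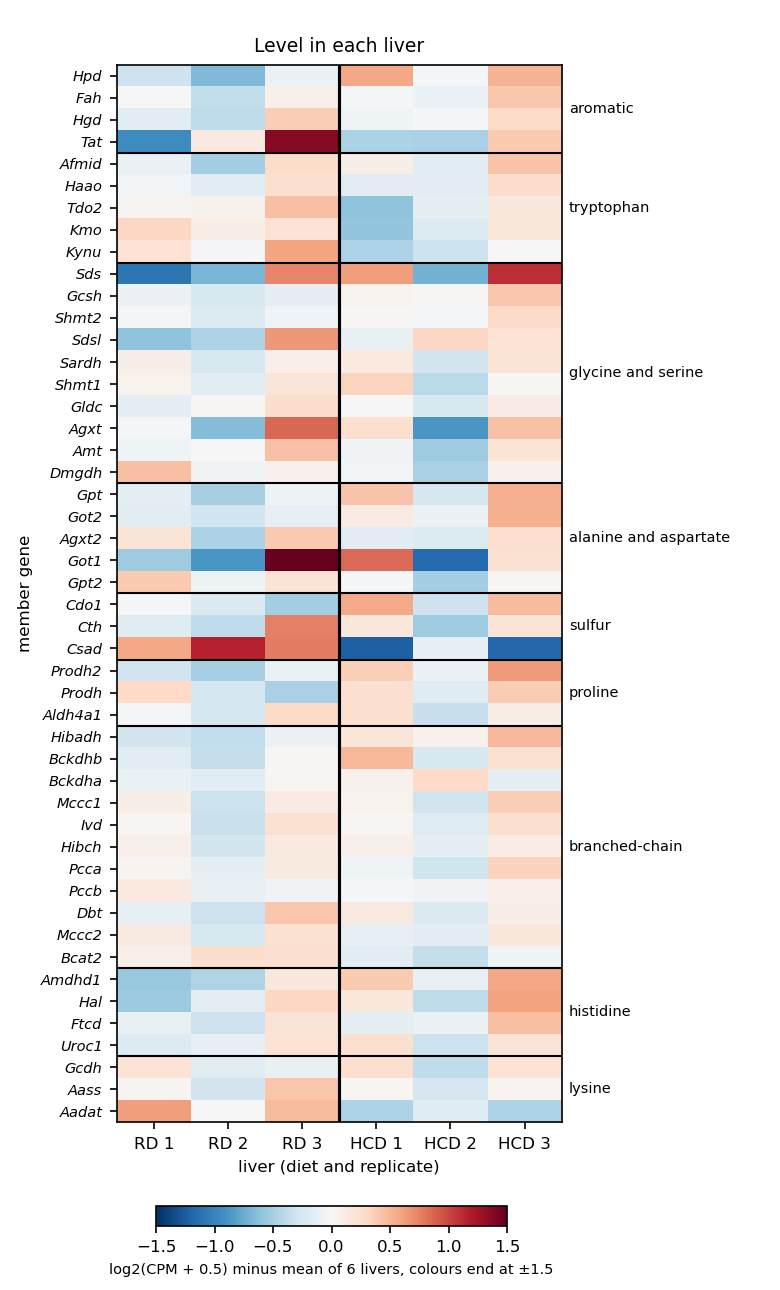
Level of each enzyme in each liver as log2(CPM + 0.5) minus the mean of the 6 livers, in rows grouped by amino acid; the colours end at 1.5 in either direction. The RD 3 and HCD 3 columns are mostly red and the RD 2 and HCD 2 columns mostly blue, and the diets do not overlap in 9 rows, Csad among them.

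The members with the widest spread were chosen after their values were seen. In 6 enzymes the coefficient of variation across RD livers was over 40%, beside a median of 16.6% over the members and 15.3% over all genes tested. These were Got1 (94.3%), Tat (75.9%), Sds (71.0%), Agxt (53.5%), Sdsl (53.2%) and Cth (45.4%), and RD 3 was the highest RD liver for each. Got1 was at 105.1, 82.7 and 429.7 CPM with RD and at 273.5, 67.1 and 177.4 CPM with HCD, a 5.19-fold range within RD. Sds was at 50.2, 66.5 and 178.5 CPM with RD and at 164.9, 65.3 and 231.2 CPM with HCD. For both genes the 2 diets covered much the same span, and the log2 fold change was -0.25 for Got1 (95% interval -1.77 to 1.26) and 0.64 for Sds (95% interval -0.59 to 1.87). Agxt, which detoxifies glyoxylate to glycine, was at 445.0 CPM in RD 3 and 332.0 CPM in HCD 3 but at 154.5 and 132.4 CPM in RD 2 and HCD 2.

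Beside the members, 81 tested genes of the same pathways, their carriers and their regulators were read from the same fit. Of these, 3 were called, all lower and all amino acid carriers, which is 3.70% beside 3.27% of all genes tested. An unadjusted p of 0.05 or below was found for 16 (19.8%), beside 20.9% of all genes tested. Slc38a3, the glutamine and histidine carrier of the hepatocyte surface, was at 1162, 1074 and 1651 CPM with RD and at 671.3, 554.7 and 736.0 CPM with HCD, and fell by 0.99 on the log2 scale (SE 0.21, adjusted p = 0.0462). Slc3a1, the heavy chain of a cystine and basic amino acid carrier, was at 54.1, 81.1 and 111.7 CPM with RD and at 30.2, 41.8 and 38.7 CPM with HCD, and fell by 1.16 on the log2 scale (SE 0.26, adjusted p = 0.0499). Slc25a44, the mitochondrial branched-chain amino acid carrier, was at 75.3, 101.1 and 77.0 CPM with RD and at 53.5, 54.3 and 50.2 CPM with HCD, and fell by 0.68 on the log2 scale (SE 0.15, adjusted p = 0.0462). The diets did not overlap for any of the 3. All of these calls lie close to the threshold, and each was lost in all 6 fits that left out a liver. Without HCD 1 the log2 fold changes in edgeR were -1.01, -1.03 and -0.69, with adjusted p of 0.0676, 0.0978 and 0.0790.

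The remaining carriers and the enzymes outside the list gave no call in edgeR. Among the 13 carriers, 10 log2 fold changes lay below 0, beside 49.3% of all genes tested. In the other lists the gene with the smallest p is named. Ethe1, the sulfur dioxygenase of hydrogen sulfide oxidation, had 0.81 (adjusted p = 0.0877), and Hao1, glycolate oxidase, had -0.72 (adjusted p = 0.101). Kyat3, another kynurenine aminotransferase, had -0.53 (adjusted p = 0.110), and Etfb, an electron carrier for Ivd, Gcdh, Sardh and Dmgdh, had 0.53 (adjusted p = 0.152). Of these 4, DESeq2 called Ethe1 (adjusted p = 0.00818), Hao1 (0.00803) and Kyat3 (0.0279), and Ethe1 was also called with no low-count filter (adjusted p = 0.0458). Pcbd1, which recycles the cofactor of phenylalanine hydroxylase, had 0.38 (adjusted p = 0.231), Echs1 of valine and isoleucine breakdown had 0.33 (adjusted p = 0.278), and Asl of the urea cycle had 0.44 (adjusted p = 0.280). Of 12 regulators, which include the glucocorticoid and glucagon receptors, 0 were called in edgeR. Cebpb, a transcription factor of the fasting and acute phase response, had the smallest p of these, with 64.3, 89.4 and 77.2 CPM with RD, 86.8, 158.8 and 221.8 CPM with HCD, a log2 fold change of 1.02 and an adjusted p of 0.110. Without HCD 1, the one HCD liver inside the RD range, Cebpb was called (log2 fold change 1.31, adjusted p = 0.0212), and with all 6 livers it was called by DESeq2 (adjusted p = 0.00466) and with no low-count filter (adjusted p = 0.0474).

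Summed markers ran from 9592 to 16670 CPM with RD and 8901 to 14606 CPM with HCD for periportal hepatocytes, where much amino acid breakdown takes place, with 1 of 10 called (Hsd17b13, higher). For pericentral hepatocytes they ran from 5468 to 9771 CPM and from 7022 to 7793 CPM, with 0 of 10 called. The 7 Kupffer cell markers all had log2 fold changes above 0, 1 of them called (Cd68), with sums of 94.2 to 167 CPM with RD and 141 to 315 CPM with HCD. Of 5 red cell markers, 2 were called higher, Hba-a1 and Hbb-bs, with sums of 138 to 239 and 177 to 468 CPM. Of all genes tested, 1.95% were called higher. Stellate, endothelial, cholangiocyte and leukocyte markers had 0 called, and 4 of 7 leukocyte markers were too low to test. Log2 fold changes lay above 0 for 6 of 6 stellate, 5 of 6 endothelial, 4 of 5 cholangiocyte and 3 of 3 tested leukocyte markers. The share above 0 was 50.7% over all genes tested. The part of these shifts in the values of Csad and the carriers was not tested.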

How the data were processed

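RNA from 6 mouse livers (3 RD, 3 HCD) was extracted with a column kit and sequenced by a service company. The authors deposited raw counts per gene and FPKM. The submitters' processing notes name STAR, HTSeq, DESeq2, edgeR and GRCm39, with no version. Counts divided by the deposited FPKM, however, gave exon lengths that were scaled by each library's median ratio to GENCODE M21 (0.590 to 0.726). After this scaling, the lengths of 95.5% to 95.9% of genes lay within 0.1% of M21 (GRCm38), so coordinates are those of M21. The exon bases implied for Haao and Cdo1 are also scaled values. Of the 48 members, 45 matched and Haao, Gldc and Cdo1 did not. Library kit, strand and annotation are not given in the sources used here. The deposited fold changes and p-values of the authors were not used.

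The counts were fitted with edgeR 4.0.16 in R 4.3.3 (TMM, default expression filter by diet, quasi-likelihood F test, two-sided, no covariates, Benjamini-Hochberg over 13105 genes, threshold 0.05), with DESeq2 1.42.0 and limma 3.58.1 on log2(FPKM + 1) and log2(FPKM + 0.1) as alternatives. Intervals cover 95%. On simulated counts for 12940 genes of this comparison, 95% of genes changed by 1 on the log2 scale and 100% of those changed by 2 were recovered, but the simulation drew every gene with a dispersion of 0.02, while the median CV of genes within HCD here was 20.9%, so these shares are higher than noisier genes would reach. Gene copies were sought with minimap2 2.31 (at least 200 bases and 90% identity). Promoter windows came from RefSeq. Libraries of a diet differed by more than counting noise (chi-square per degree of freedom 30.1 to 154), so none was another reading of the same library. This comparison cannot tell whether any libraries came from the same animal.

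The members and lists were chosen with earlier results of these data known. Values per liver are given for called members, for the member with the smallest p and the one with the highest FPKM in each amino acid group, and for pairs of isoenzymes or subunits as ratios. In groups of 5 or fewer all fold changes are given. Outside it, the per-liver values of Tat, Cth, Bcat2, Gpt2, Got1, Sds and Agxt, and the fold changes of Gldc, Amt, Dbt, Bckdha, Bckdhb and Shmt2, were chosen after they were seen.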

Additional observations from a re-analysis of the deposited data

How the results depend on the processing

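Over 10 alternatives that kept all 6 livers, Csad was called in 10, with adjusted p up to 0.0443. Members called higher numbered 2 with DESeq2 and 5 at an unadjusted p of 0.05 or less. Members called lower numbered 2 with DESeq2, 2 with no low-count filter and 4 at an unadjusted p. Leaving out each liver gave 0 to 0 members higher, 0 to 1 lower and 36 to 335 genes called in all, against 428, the lowest numbers without RD 1 (36), RD 2 (51), HCD 3 (103) and RD 3 (146). In those fits the adjusted p of Csad was 0.112, 0.149 and 0.0799 without RD 1, 2 and 3, and 0.0650, 0.0163 and 0.111 without HCD 1, 2 and 3, at log2 fold changes of -2.07 to -1.42. All genes called numbered 995 with DESeq2, 649 with no low-count filter, 251 with length-trend offsets and 2739 at an unadjusted p. The cause of these shifts was not tested.

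With the replicate block, 136 genes were called, Csad among them (log2 fold change -1.68, adjusted p = 0.0275), and the 3 carriers were not. Same-numbered livers correlated at -0.084, 0.12 and -0.030 in their deviations from the diet means over all genes tested. Such values cannot decide whether the numbers pair the samples, because deviations from a mean of 3 livers depend on one another.

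The median of the members ran from -0.067 to 0.17 over the leave-one-out fits and was -0.037 with library sizes alone, all within the 0.23 SD of member medians between livers of a diet. Signs turned where the difference was near 0. Haao was 0.024 with length-trend offsets, and Sardh was -0.0030 with library sizes alone. Pccb was -0.013 with DESeq2, -0.0047 with RLE factors, -0.067 with library sizes alone, -0.014 with no filter and -0.043 with length-trend offsets. Over the leave-one-out fits Gcdh ran from -0.037 to 0.24, Haao from -0.20 to 0.085, Pccb from -0.059 to 0.077 and Sardh from -0.045 to 0.19. Of the 10 alternatives, Slc38a3, Slc3a1 and Slc25a44 were called in 5, 5 and 4.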

Other observations

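A further list of 6 genes around Csad, for taurine supply and bile acid conjugation, was chosen after the data were seen and serves as a description. Of the 5 that were listed, 0 were called. Slc6a6, the taurine carrier, was at 95.4, 112.2 and 113.7 CPM with RD and at 167.6, 182.4 and 123.1 CPM with HCD, without overlap, for a log2 fold change of 0.56 (adjusted p = 0.120 in edgeR). Fmo1, which oxidises hypotaurine to taurine, was at 140.8, 149.3 and 142.6 CPM with RD and at 216.5, 140.2 and 231.6 CPM with HCD, for 0.44 (adjusted p = 0.236). Its RD livers lay close together, and HCD 2 lay just below them. Baat, which joins bile acids to taurine, and Slc27a5, which first activates them with coenzyme A, had log2 fold changes of -0.22 and -0.099, and Ado, which oxidises cysteamine to hypotaurine, had -0.081, with adjusted p of 0.476, 0.767 and 0.814. Gadl1 was not listed.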
